A study of Mus musculus with 5 samples.

Results

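Serpins are a family of protein inhibitors that trap proteases by offering them a bait loop and changing shape once it is cut. Those of clade A are mostly secreted, and many are plasma proteins made in the liver. Those of clade B act mainly inside cells, and a set of them is made by keratinocytes, where they face the proteases that loosen the outer skin. A few serpins inhibit no protease and serve as chaperones or signalling proteins.

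The members were all gene probes whose symbol in the platform annotation starts with Serpin. These were 53 of 34743 probes kept, of which 50 carried 1 symbol and 3 carried several. The 50 probes stood for 44 of 18467 named genes, and a gene with more than 1 probe was represented by its brightest. The 8 genes Serpinb2, Serpinb3a, Serpinb3c, Serpinb5, Serpinb7, Serpinb8, Serpinb12 and Serpinb13, which keratinocytes are known to express, were set apart as epidermal Serpinb genes from the other 36. A further 4 genes above background on at least 1 array (Serpina3c, Serpina3m, Serpinb3b and Serpine2) carry no symbol in that annotation and were named through a RefSeq accession. They are described below but stand outside every count of members.

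The study measured total RNA from back skin of hairless albino mice on 5 one-colour CodeLink arrays, 1 per group. The groups were Xpa mutant skin 3 h and 24 h after UVB at 1 kJ per square metre, wild-type (WT) skin 3 h and 24 h after the same dose, and WT skin without UVB. Xpa encodes a protein that binds damaged DNA in nucleotide excision repair. Skin of Xpa mutants without UVB was not analysed here, and the mutant allele and whether an array held 1 mouse or a pool are not given in the sources used here.

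With 1 array per group there was no replicate error and no test, so every difference below compares 2 arrays. Levels are log2 intensities after background correction and quantile normalization, and a difference of 1 is 2-fold. A probe counts as above background when the scanner software gave it no low-signal flag. The lowest level above background lay between 7.01 and 7.07 on the 5 arrays, and 23.5% to 25.1% of gene probes were above it. Where the dimmer of 2 arrays was below background, the fold is a lower bound against that limit or the probe's own value, whichever is higher. Of 30 spiked control probes with 10 spots each, spots of a probe had a median SD of 0.13 on an array. After each array's shift was removed, a control probe's mean had a median SD of 0.06 between arrays. The probe of Xpa itself was below background on both mutant arrays and above it on 2 of the 3 WT arrays, at 7.49 without UVB and 7.55 at 24 h.

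Promoters are shown for 4 genes on which the results turn: Serpina3n and Serpina3b, both higher in the mutant at 24 h, Serpinb2, lower in the mutant at both times, and Serpinb7, lower at 24 h in both genotypes. Each is the 250 bases before the annotated start, from RefSeq on GRCm38.p6, on the plus strand. Capitals mark the TGANTCA letters that AP-1 factors bind and the TATAAA letters of a TATA box, read on either strand.
Serpina3n, chr12:104406458-104406707: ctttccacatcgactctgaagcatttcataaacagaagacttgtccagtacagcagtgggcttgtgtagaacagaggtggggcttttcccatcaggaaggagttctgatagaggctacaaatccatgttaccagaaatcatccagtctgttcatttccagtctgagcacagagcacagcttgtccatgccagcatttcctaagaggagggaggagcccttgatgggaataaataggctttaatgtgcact
Serpina3b, chr12:104127746-104127995: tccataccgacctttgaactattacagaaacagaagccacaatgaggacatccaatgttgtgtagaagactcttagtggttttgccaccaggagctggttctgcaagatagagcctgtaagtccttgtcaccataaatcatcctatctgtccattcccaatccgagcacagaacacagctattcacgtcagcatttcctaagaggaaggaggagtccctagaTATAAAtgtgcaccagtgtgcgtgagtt
Serpinb2, chr1:107511173-107511422: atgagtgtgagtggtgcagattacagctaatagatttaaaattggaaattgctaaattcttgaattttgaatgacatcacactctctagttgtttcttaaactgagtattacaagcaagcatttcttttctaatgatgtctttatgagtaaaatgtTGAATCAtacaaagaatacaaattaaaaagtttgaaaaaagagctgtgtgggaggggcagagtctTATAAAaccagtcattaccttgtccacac
Serpinb7, chr1:107422439-107422688: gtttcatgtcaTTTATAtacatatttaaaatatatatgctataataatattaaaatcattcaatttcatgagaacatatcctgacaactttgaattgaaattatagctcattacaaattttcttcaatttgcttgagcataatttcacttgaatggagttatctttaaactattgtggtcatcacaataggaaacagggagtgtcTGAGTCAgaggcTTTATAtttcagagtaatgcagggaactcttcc

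The windows of Serpina3n and Serpina3b, which belong to the same cluster on chromosome 12, were identical at 69.7% of aligned positions and shared an unbroken run of 18 bases. The other 5 pairs of windows had 47.9% to 54.9% identity. TATAAA stood in the Serpina3b window with its last base 23 bases before the start, and Serpina3n held none of the letters searched. Serpinb2 and Serpinb7, both on chromosome 1, each held TGANTCA, ending 88 and 39 bases before the start. Serpinb2 has 2 annotated starts, and the window shown is that of the first.

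Promoter windows were found for 37 of the 44 genes and for 17 of the 19 that were above background on at least 1 array. TGANTCA stood in a window of 6 of these 17 (Serpinb2, Serpinb5, Serpinb7, Serpinb8, Serpinb11 and Serpinb12), all of the chromosome 1 cluster, against 6.75% of all 32851 promoter windows. Members below background on every array are outside these counts. Among those, TGANTCA also stood in windows of Serpinb10 and, on chromosome 12, of Serpina1c and Serpina1d. TATAAA stood in 6 of 17, against 12.4% of all windows. The STAT letters TTCNNNGAA stood in 3 of 17 against 7.02%, and an NF-kB match in 1, Serpinh1, against 7.25%. A gene with several annotated starts counted once if any of its windows held the letters. The shares of all promoters are per window, so counts and shares are not on the same footing. A match is only a match of letters.

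Of the 44 Serpin genes, 19 were above background on at least 1 array (43.2%, against 43.8% of all named genes) and 10 on all 5. Among the epidermal Serpinb genes 6 of 8 were above background, against 5 of 15 in clade A, 5 of 13 of the other clade B genes and 3 of 8 in clades C to I. The number above background ran only from 15 to 16 per array. Within the epidermal set it was 5 and 3 on the 3 h and 24 h mutant arrays, against 5 and 5 on the WT arrays at those times and 6 without UVB.

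Many of the 25 genes below background on every array encode serpins of blood plasma. They include the genes of antithrombin (Serpinc1), heparin cofactor II (Serpind1), antiplasmin (Serpinf2), corticosteroid-binding globulin (Serpina6) and the protein Z-dependent inhibitor (Serpina10), and the alpha-1-antitrypsin genes Serpina1c, Serpina1d and Serpina1e. Neuroserpin (Serpini1), Serpini2, Serpina1f, Serpina3f, Serpina4-ps1, Serpina5 and Serpina9 were also below background on every array. So were the clade B genes Serpinb1c, Serpinb6b, Serpinb10, the granzyme B inhibitor Serpinb9 and its copies Serpinb9b, Serpinb9c, Serpinb9d and Serpinb9e, and the epidermal Serpinb3c and Serpinb13. All 5 liver markers read (Alb, Apoa1, Apob, Ttr and Fgb) were below background on all arrays.

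Serpina3n, a secreted inhibitor that in mice blocks granzyme B and belongs to the acute-phase proteins, had the widest range of levels over the 5 arrays among members above background. Its level was 8.13 and 9.76 on the 3 h and 24 h mutant arrays, against 8.45 and 8.34 on the WT arrays at those times and 7.19, below background, without UVB. In background-subtracted intensity these were 224 and 769.5 on the mutant arrays, against 299 and 278 on the irradiated WT arrays and 101 without UVB. All 4 irradiated arrays were above the unirradiated one, and the mutant at 24 h stood above the other 3. The gene was at least 2.39-fold higher in WT skin at 3 h and at least 2.22-fold higher at 24 h than without UVB. In mutant skin it was 2.67-fold higher than in WT at 24 h and 3.08-fold higher at 24 h than at 3 h, while at 3 h the mutant minus WT difference was -0.31.

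**Figure D1:**
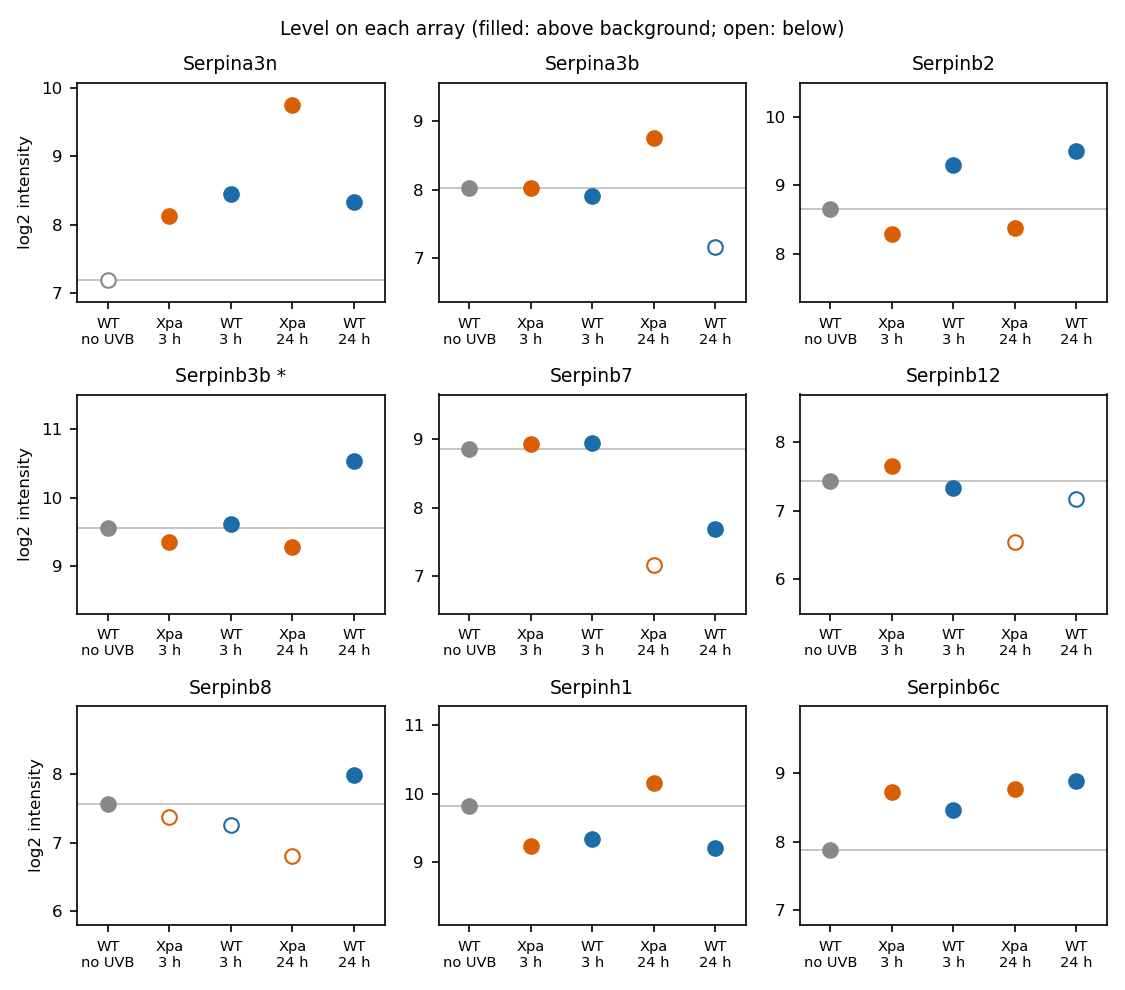
Log2 intensity of 9 Serpin genes on each array, in 1 panel per gene, with orange points for Xpa mutant skin, blue for irradiated WT skin and grey for WT skin without UVB, whose level the grey line extends. Open points were below background and the asterisk marks a gene named by accession; Serpina3n was at 9.76 on the mutant array at 24 h, and Serpinb2 was lower on both mutant arrays than on the WT arrays of the same times.

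Serpina3b, a gene of the same cluster, showed another pattern. It was at 8.02 and 8.76 on the 3 h and 24 h mutant arrays, against 7.91 and 7.15 on the WT arrays at those times and 8.02 without UVB. Only the WT array at 24 h was below background, and the mutant was at least 3.04-fold higher than WT at that time. Other genes of this cluster were dim. Serpina3a was at 7.20 and 7.65 on the mutant arrays, against 7.82 and 6.99 on the 3 h and 24 h WT arrays and 7.04 without UVB, and was above background on the mutant array at 24 h and the WT array at 3 h. Serpina3m, named by accession, was above background on 1 array, with 7.64 in the mutant at 24 h and 6.69, below background, in WT at that time. Serpina3c, also named by accession, lay between 7.24 and 7.28 on all arrays and was above background only on the WT array at 24 h. Genes of this cluster are close copies of each other, and since probe sequences were not used here, how much of a signal belongs to a neighbouring copy was not tested.

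The other clade A genes above background stayed within a narrower range. Serpina12 (vaspin), which in humans inhibits kallikrein 7, was above background on all arrays, at 7.51 and 7.74 on the mutant arrays against 7.85 and 7.66 on the WT arrays and 7.48 without UVB. Serpina11 was at 7.51 and 7.60 on the 3 h and 24 h mutant arrays, and below background at 6.89 and 6.95 on the WT arrays of those times. Its level without UVB was 7.19, and its second probe was below background throughout.

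Among the epidermal genes, Serpinb2 was lower in the mutant at both times. It encodes the plasminogen activator inhibitor PAI-2, which blocks urokinase and is kept largely inside keratinocytes. Its level was 8.28 and 8.37 on the 3 h and 24 h mutant arrays, against 9.31 and 9.51 on the WT arrays at those times and 8.65 without UVB. Both irradiated WT arrays were above the unirradiated array and both mutant arrays below it. Mutant skin was 2.03-fold lower than WT skin at 3 h and 2.20-fold lower at 24 h. Against unirradiated WT skin, the differences were -0.37 and -0.28 in the mutant, where genotype and UVB cannot be told apart, and 0.65 and 0.86 in WT. Urokinase (Plau), the protease it blocks, was below background on all arrays. Its receptor gene Plaur was at 7.83, above background, on the mutant array at 24 h and at 6.61, below it, on the WT array of that time, at least 1.72-fold higher.

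Serpinb3b, a mouse relative of the human squamous cell carcinoma antigens and named here by accession, was likewise lower in the mutant at 24 h. It was at 9.36 and 9.27 on the 3 h and 24 h mutant arrays, against 9.61 and 10.54 on the WT arrays at those times and 9.56 without UVB. The WT array at 24 h stood above the other 4, and the mutant was 2.41-fold lower than WT there. Serpinb3a, its close copy, lay between 7.55 and 7.78 on all 5 arrays.

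Serpinb7, an epidermal serpin whose loss in humans causes a thickening of the palms and soles, was lower at 24 h in both genotypes. It was at 8.93 and 7.16 on the 3 h and 24 h mutant arrays, against 8.95 and 7.69 on the WT arrays at those times and 8.86 without UVB. The arrays at 3 h and without UVB were close together, both arrays at 24 h were lower, and the mutant array at 24 h was below background. In WT skin the gene was 2.25-fold lower at 24 h than without UVB and 2.39-fold lower than at 3 h, and in mutant skin at least 3.40-fold lower at 24 h than at 3 h. The mutant minus WT difference at 24 h was -0.53.

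Serpinb12, an inhibitor of trypsin-like proteases, was above background on the arrays at 3 h and without UVB and below it at 24 h in both genotypes. It was at 7.65 and 6.55 on the 3 h and 24 h mutant arrays, against 7.34 and 7.18 on the WT arrays and 7.44 without UVB, and was at least 1.52-fold lower in the mutant at 24 h than at 3 h. Serpinb8, which is linked to a peeling skin disease in humans, was at 7.37 and 6.80, both below background, on the mutant arrays, against 7.26, below background, and 7.99 on the WT arrays and 7.57 without UVB. At 24 h it was at least 1.93-fold lower in the mutant than in WT. Serpinb5 (maspin), a serpin of epithelia that inhibits no protease, was above background on every array. It was at 10.64 and 10.16 on the mutant arrays, against 10.77 and 10.42 on the WT arrays and 10.88 without UVB, so that both arrays at 24 h were the lowest of their genotype.

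The other clade B genes above background, 4 of them on chromosome 13 and 1 on chromosome 1, each had their highest level on an irradiated array. Serpinb6a, an inhibitor of cathepsin G, was at 10.97 and 11.08 on the mutant arrays, against 10.64 and 10.74 on the WT arrays and 10.10 without UVB. Its close copy Serpinb6c was at 8.72 and 8.77 on the mutant arrays, against 8.47 and 8.89 on the WT arrays and 7.87 without UVB, and was 2.03-fold higher in WT skin at 24 h than without UVB. For both genes all 4 irradiated arrays were above the unirradiated one. The second Serpinb6a probe was below background on all 5 arrays.

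Serpinb1a, which inhibits neutrophil elastase, was at 8.68 and 9.46 on the mutant arrays, against 8.61 and 8.69 on the WT arrays and 8.57 without UVB, with a mutant minus WT difference of 0.77 at 24 h. The mutant array at 24 h stood above 4 arrays that lay close together. Its copy Serpinb1b was at 7.24, below background, and 7.99 on the mutant arrays, against 7.60 and 7.49 on the WT arrays and 7.28 without UVB. Serpinb11, a gene of the chromosome 1 cluster, was at 7.03, below background, and 7.46 on the mutant arrays, against 7.09, below background, and 7.81 on the WT arrays and 6.78, below background, without UVB. It was above background at 24 h alone in both genotypes, and WT skin was at least 1.74-fold higher at 24 h than without UVB.

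Members of clades C to I that were above background were so on all arrays. Serpinh1 encodes Hsp47, the collagen chaperone of the endoplasmic reticulum. It was at 9.24 and 10.16 on the 3 h and 24 h mutant arrays, against 9.33 and 9.20 on the WT arrays at those times and 9.82 without UVB. By this brighter probe, both WT arrays and the mutant array at 3 h were below the unirradiated array. The mutant array at 24 h was above it. By the gene's second, dimmer probe, also above background on all arrays, the mutant array at 3 h was at 8.38 and the unirradiated array at 8.31. The mutant minus WT difference at 24 h was 0.95 by the brighter probe and 0.55 by the second, both under 2-fold.

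Serping1, the C1 inhibitor of the complement and contact systems, was at 9.92 and 10.61 on the mutant arrays, against 9.69 and 9.83 on the WT arrays and 9.72 without UVB. Serpinf1, the pigment epithelium-derived factor, which restrains vessel growth and inhibits no protease, lay between 7.96 and 8.38. Serpine2 (protease nexin-1), an inhibitor of thrombin and urokinase named by accession, was at 7.93 and 8.73 on the mutant arrays, against 7.67 and 7.67 on the WT arrays and 7.80 without UVB, and was 2.08-fold higher in the mutant than in WT at 24 h. For Serping1 and Serpine2 the mutant array at 24 h was the highest of the 5.

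**Figure D2:**
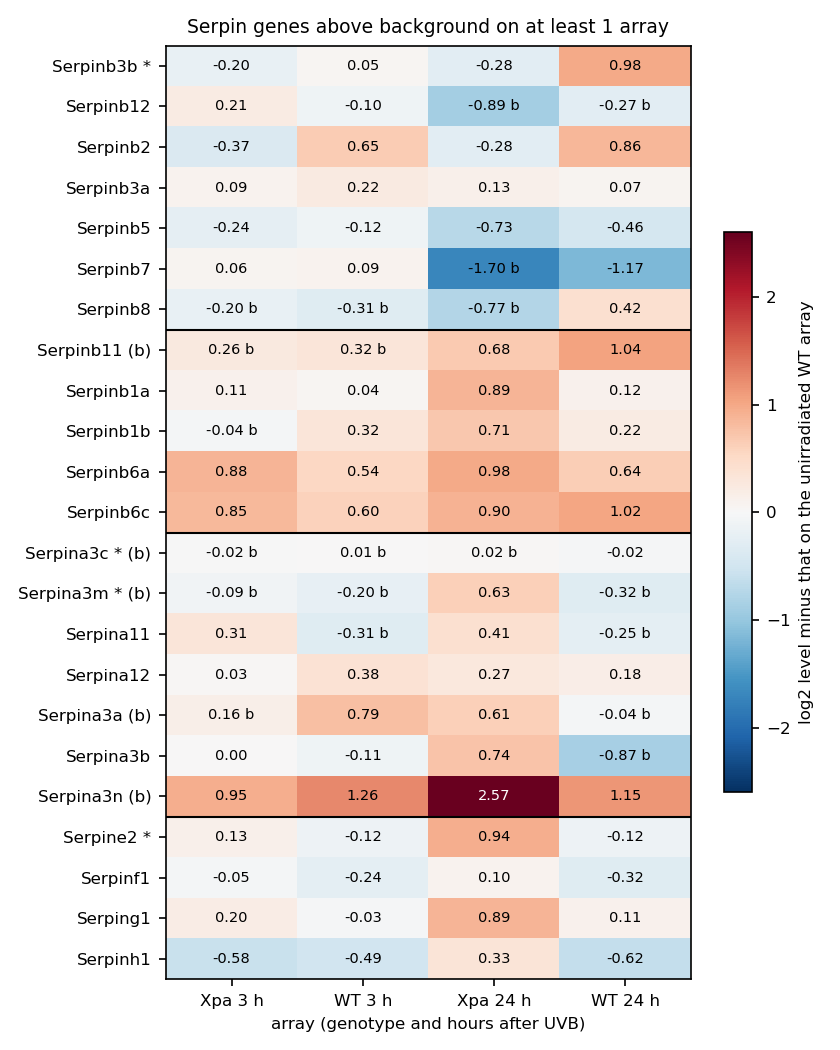
Log2 level minus that on the unirradiated WT array, in rows for the Serpin genes above background on at least 1 array and columns for the irradiated arrays; lines separate epidermal Serpinb genes, other clade B, clade A and clades C to I. The letter b marks a level below background, beside the gene name for the unirradiated array, and asterisks mark genes named by accession; Serpina3n on the mutant array at 24 h has the highest value, 2.57, and Serpinb7 on that array the lowest, -1.70.

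Few Serpin genes were past 2-fold in irradiated against unirradiated WT skin. At 3 h, 1 of 18 compared genes, Serpina3n, was at least 2-fold higher than without UVB and 0 were lower, against 2.27% higher and 1.26% lower of 7148 named genes. At 24 h, 3 of 18 were higher (Serpina3n, Serpinb11 and Serpinb6c) and 1 was lower (Serpinb7), against 2.45% and 2.22% of 7268 named genes. Comparison required a level above background on 1 of the 2 arrays or both. A gene that is dim on 1 array thus enters through the other, which mostly fixes the side it lies on. Medians are therefore given over members above background on both arrays. At 3 h they were 0.09 over 5 epidermal genes and 0.04 over 9 others, against -0.02 over all named genes chosen in the same way. At 24 h they were 0.07 over 5 epidermal genes, 0.15 over 8 others and 0.01 over all named genes. In bulk skin, fewer cells of a type and less RNA per cell cannot be told apart.

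Between genotypes, Serpinb2 was lower in the mutant at both times, and at 24 h Serpina3n and Serpina3b were higher. At 3 h, 0 of 17 compared genes were past 2-fold higher in the mutant than in WT and 1, Serpinb2, was past 2-fold lower, against 1.12% and 0.991% of 6863 named genes. At 24 h, 2 of 18 were higher (Serpina3b and Serpina3n) and 2 were lower (Serpinb2 and Serpinb8), against 1.6% and 2.66% of 7104 named genes. Of these 4, Serpina3b was below background in WT and Serpinb8 in the mutant. Over members that passed background on both arrays, the median mutant minus WT difference at 24 h was -0.27 over 3 epidermal genes (Serpinb2, Serpinb3a and Serpinb5), of which 2 were below 0, and 0.46 over 10 others, of which 8 were above 0. Over all named genes chosen in the same way it was 0.00. With the 2 epidermal genes and 3 others that were dim on 1 array the medians were -0.53 and 0.65, values that rest on Serpinb7 and Serpina3a, dim on 1 array each. With no filter on dim probes they were -0.40 over 8 and 0.12 over 36 genes. At 3 h, over members that passed background on both arrays, the medians were -0.13 over 5 epidermal genes, 0.11 over 9 others and 0.02 over all named genes.

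**Figure D3:**
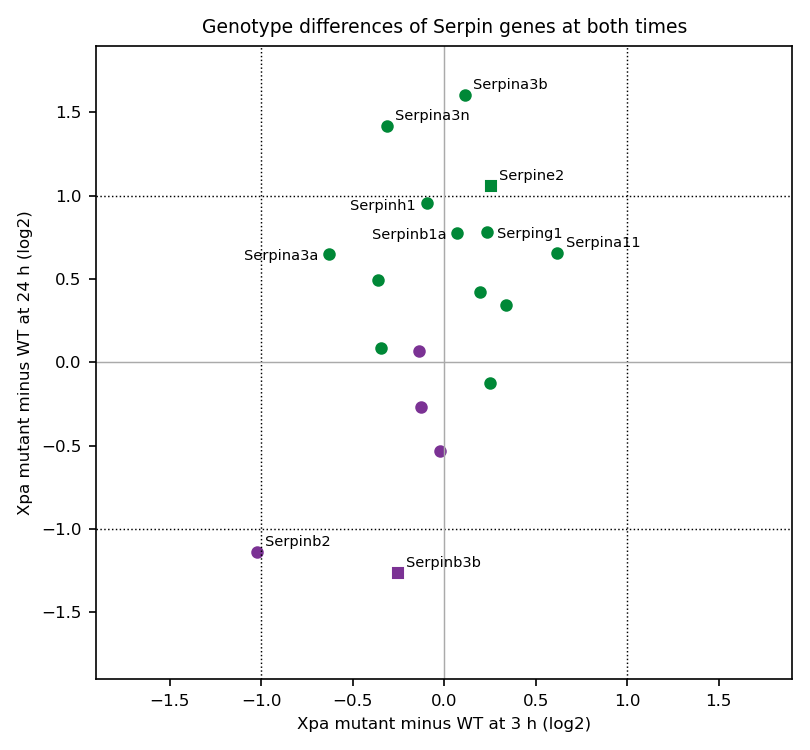
Mutant minus WT log2 difference of each Serpin gene at 3 h (horizontal axis) and at 24 h (vertical axis), for genes compared at both times, with epidermal Serpinb genes in purple, others in green and squares for genes named by accession. Dotted lines mark 2-fold; Serpinb2 lies past it at both times, at -1.02 and -1.14.

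The change from 3 h to 24 h was read within each genotype. In mutant skin at 24 h against 3 h, 1 of 18 compared genes was at least 2-fold higher (Serpina3n) and 2 were lower (Serpinb7 and Serpinb12), against 2.44% and 3.75% of 7090 named genes. Serpinb7 and Serpinb12 were both below background at 24 h. Over members above background on both arrays, all 10 outside the epidermal set were above 0, with a median of 0.46, and the 3 epidermal genes (Serpinb2, Serpinb3a and Serpinb5) had a median of 0.04, with 1 below 0. Over all named genes chosen in the same way the median was 0.02. In WT skin, 0 of 18 genes were higher and 1, Serpinb7, was lower at 24 h than at 3 h, against 2.09% and 2.22% of 7120 named genes. The medians over members above background on both arrays were -0.25 over 4 epidermal genes and -0.08 over 9 others, against 0.02 over all named genes. These comparisons share arrays with those between genotypes and with those against unirradiated skin.

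**Figure D4:**
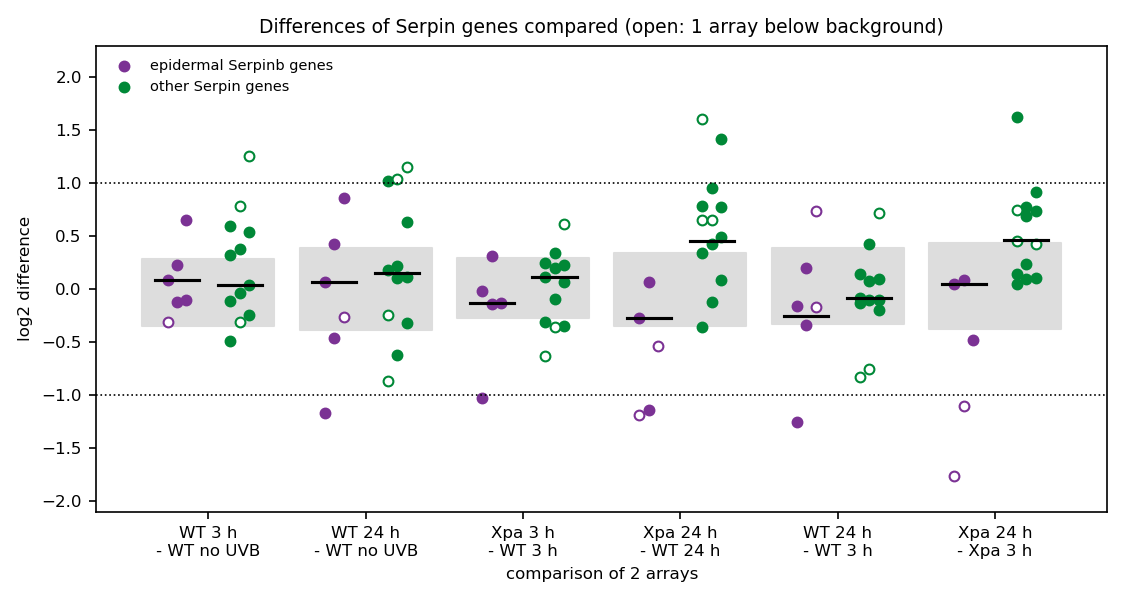
Log2 difference of each compared Serpin gene in the 6 comparisons of 2 arrays, with epidermal Serpinb genes in purple and others in green, open points where 1 array was below background, and black bars for the median of the filled points of each set. Grey boxes span the median of all named genes plus and minus their robust SD (the scaled median absolute deviation). The boxes take genes above background on at least 1 of the 2 arrays, a wider choice than that of the bars. Dotted lines mark 2-fold. In mutant against WT skin at 24 h the bars lie at -0.27 for 3 epidermal genes and 0.46 for 10 others.

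The proteases that serpins can face were read from a list of 28 genes, of which 25 were named on the arrays. In WT skin at 24 h, 4 of the 16 genes compared had a level at least 2-fold that without UVB and 0 were 2-fold lower; the median was 0.42. They were the epidermal kallikreins Klk6 (8.92-fold), Klk10 (3.50-fold) and Klk13 (3.42-fold) and the lysosomal cathepsin gene Ctss (2.23-fold). In mutant against WT skin at 24 h, 4 of 15 were lower and 0 higher, with a median of -0.08. These were Klk6 (2.64-fold), Klk13 (2.54-fold), Klk7 (2.21-fold), which cleaves the contacts between cells of the horny layer, and Klk11 (at least 1.76-fold). Neutrophil elastase (Elane), proteinase 3 (Prtn3), both granzyme genes read (Gzma and Gzmb), plasminogen (Plg) and thrombin (F2) were below background on every array.

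Inhibitors of other families also differed. Of 20 listed, 17 were named, and in mutant against WT skin at 24 h 2 of the 13 genes compared were past 2-fold higher and 0 past 2-fold lower. The median was -0.03. Timp1, an inhibitor of matrix metalloproteinases, was at 9.10 in the mutant and 7.04, below background, in WT, at least 4.14-fold higher at 24 h. At 3 h it lay the other way, at 6.82 and below background in the mutant, at least 1.92-fold lower than in WT. At 24 h Tfpi2 was at least 1.42-fold higher in the mutant than in WT. Slpi, the secretory leukocyte protease inhibitor, was at 8.31 and 9.95 on the 3 h and 24 h mutant arrays, against 9.16 and 9.89 on the WT arrays at those times and 6.30, below background, without UVB.

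Markers of skin layers and cell types were read on the same arrays, and their part in the differences of Serpin genes was not tested. Of 5 suprabasal keratinocyte markers, all above background on at least 1 array, 4 were at least 2-fold lower in WT at 24 h than without UVB (Flg2, Krt1, Krt10 and Lor). In mutant against WT skin at 24 h, 2 of 5 were past 2-fold lower and 0 higher, with a median of -0.72. These were Lor (2.39-fold) and Ivl (a log2 difference of -1.07, with the mutant below background). Serpinb2 and Serpinb8 were also lower in this comparison. In WT at 24 h against no UVB, Serpinb2 and Serpinb8 were higher, by 0.86 and 0.42. In mutant against WT at 3 h, Serpinb2 was at -1.02 and the median of the suprabasal markers compared was 0.12. The summed level of the suprabasal markers, the log2 of the summed intensities, was 14.72 and 13.33 on the 3 h and 24 h mutant arrays. It was 14.52 and 13.43 on the WT arrays at those times and 14.88 without UVB. This sum was lower at 24 h in both genotypes, as Serpinb7 was. Serpinb12, below background at 24 h, changed from 3 h to 24 h by -1.10 in the mutant and by -0.16 in WT. The brightest members weigh most in such a sum. The summed level of 10 genes of activated epidermis was 13.18 and 14.49 on the mutant arrays, against 13.84 and 15.51 on the WT arrays and 12.22 without UVB. At 24 h, 5 of these 10 were at least 2-fold lower in the mutant than in WT (Krt6b, Krt16, Krt17, Sprr1b and Krt6a) and 2 were higher (S100a8 and S100a9).

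Of 6 fibroblast markers (Col1a1, Col1a2, Col3a1, Dcn, Lum and Pdgfra), 0 were below background on all arrays. Their summed level was 13.52 and 14.26 on the 3 h and 24 h mutant arrays, against 13.60 and 13.35 on the WT arrays. It was 14.61 without UVB. The brighter Serpinh1 probe shared this order except that the unirradiated array was highest in the sum. The second Serpinh1 probe did not share it, with 8.38 in the mutant at 3 h and 8.21 in WT at 3 h. Col3a1, at 14.15 without UVB, weighs most in the fibroblast sum. Pdgfra alone of the fibroblast markers was higher in WT skin than without UVB, by 0.44 at 3 h and 0.27 at 24 h. Of 16 named genes of collagen chains and collagen enzymes, 2 of the 11 compared were past 2-fold higher at 24 h in mutant against WT skin (Col1a2, 2.93-fold, and Col1a1, 2.10-fold), with a median of 0.50. In WT skin at 24 h, 4 of 11 were lower than without UVB (Col1a1, Col1a2, Col3a1 and Col6a2), with a median of -0.82. Col1a1, Col1a2 and Col3a1 stand in both the fibroblast and the collagen list, so these lists are not independent.

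Of 9 neutrophil markers 7 were below background on all arrays, among them Csf3r, Cxcr2, Mpo and Elane, and the other two, S100a8 and S100a9, are also made by activated keratinocytes. Their summed level over all 9 was 9.80 and 11.88 on the mutant arrays, against 9.87 and 10.89 on the WT arrays and 9.45 without UVB. Of 5 named macrophage markers Adgre1 was below background on all arrays, and the summed level was 10.81 and 11.33 on the mutant arrays, against 10.67 and 11.33 on the WT arrays and 10.20 without UVB. The 5 hair follicle markers (Krt71, Krt25, Krt86, Krt33a and Gata3) also differed between arrays. Their summed level was 12.35 and 10.58 on the mutant arrays, against 10.91 and 9.83 on the WT arrays and 9.81 without UVB. Without UVB, Gata3 alone of these was above background, at 9.18. In WT at 24 h against no UVB the sum hides opposite differences, -0.635 for Gata3 and 1.14 for Krt25. The summed level of 4 named sebaceous gland markers, with Mogat1 below background on all arrays, was 10.49 and 9.69 on the mutant arrays. It was 10.44 and 10.97 on the WT arrays and 10.61 without UVB.

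In mutant against WT skin at 24 h, 3 of 4 compared hair follicle markers were past 2-fold higher (Krt25, Krt71 and Krt86). The other marker, Gata3, lay the other way, with a difference of -0.63. Of 3 sebaceous gland genes compared, 2 were past 2-fold lower (Elovl3 and Dgat2). Past 2-fold in either direction were 0 of 4 macrophage, 0 of 6 basal keratinocyte, 0 of 4 mast cell, 0 of 2 endothelial, 0 of 3 adipocyte and 0 of 5 skeletal muscle markers, with medians of -0.03, -0.45, 0.08, 0.42, 0.26 and 0.06 in that order. No marker of T and NK cells was above background on either of these arrays.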

How the data were processed

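Back skin RNA, labelled with Cy5, was measured on 5 one-colour arrays, 1 per group, with 36227 spots each. The deposited scanner tables, quantified per the file headers with CodeLink Expression Analysis 5.0.0.31312, give the mean intensity of each spot, its median local background intensity and a quality flag. The authors also deposited a normalized intensity table, whose 173715 cells of the kept probes were all equal to the series matrix within rounding. Values in it are linear and not centred per gene, 3054 of these cells stand at 0.001, and no source used here names the software that normalized it.

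The limma package (3.58.1, R 4.3.3) corrected background by normexp with an offset of 50. Of 34967 gene probes, 126 masked and 98 irregular on any array were left out. The 34743 others were quantile normalized, and the deposited intensity became a log2 level. No spot was saturated, and 8148 to 8725 gene probes per array were above background. Pairs of arrays correlated at 0.89 to 0.97 over the 4644 genes that passed background on every array.

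The platform annotation gave 1 symbol to 21471 probes and several to 678. A RefSeq accession named 533 more, 12061 had no name here, and probes with several symbols named no gene. A gene was compared when above background on at least 1 of 2 arrays, and counted at a log2 difference of 1 or more in size. Every Serpin gene above background on at least 1 array is named, and those past 2-fold in 1 of the 6 comparisons have their level on every array. Other lists are given by counts, medians or summed levels, and their genes past 2-fold are named for the comparisons described. With 1 array per group no test, standard error or p-value was computed, and the number of arrays limits the precision. Members and lists were chosen with earlier results of these data known. Alternatives were no background correction, an offset of 16, median scaling, the authors' table with a pseudocount of 50 or 1, 2 filters on dim probes and the mean over a gene's probes. Python 3.11.15 with pandas 2.3.3 and numpy 2.4.6 did the rest.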

Additional observations from a re-analysis of the deposited data

Results flagged for a closer look

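The change from 3 h to 24 h differed by more than 1 between genotypes for the members Serpina3n and Serpinh1 and for Serpinb3b. This is a value with no test of the difference. It could be formed for the 11 members above background on all 4 irradiated arrays, and for Serpinb3b and Serpine2, named by accession. For Serpina3n the change was 1.62 in the mutant and -0.11 in WT, so that the mutant change minus the WT change was 1.73. For Serpinh1 the changes were 0.92 and -0.13, a difference of 1.05, while its second probe gave 0.36 and -0.02. For Serpinb3b, named by accession, the changes were -0.08 in the mutant and 0.93 in WT, a difference of -1.01. Of the 11 members, 2 had a difference of changes of at least 1 and 0 of -1 or below. Among 4782 named genes above background on those arrays the shares were 1.78% and 2.49%. These counts and shares take the difference alone, whatever the signs of the changes. Serpina3n, Serpinh1 and Serpinb3b were singled out because the change had opposite signs in the genotypes and the difference was past 1.

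A probe that carries the symbols of both Serpina1b and Serpina1d, alpha-1-antitrypsin genes, stood for no gene in the comparisons. It was above background on 2 arrays, at 7.49 in mutant skin at 24 h and 7.27 in WT skin at 3 h, and below background on the unirradiated WT array at 6.93. It was also below background in mutant skin at 3 h (7.19) and WT skin at 24 h (7.05). The difference between the 2 arrays above background and the rest was not tested. The probe with the symbols of 5 Serpina1 genes and the probe of Serpinb9f and Serpinb9g were below background on every array.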

How the results depend on the processing

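Of 16 differences past 2-fold named here, all kept their direction in the 8 alternatives that gave them a value, and all stayed past 2-fold with median scaling, an offset of 16, the authors' table with either pseudocount, no filter on dim probes and the mean over a gene's probes. With no background correction 10 stayed past it, and Serpinb11 (0.70) and Serpinb6c (0.88) in WT at 24 h, Serpinb2 at 3 h (-0.91), Serpinb8 (-0.98) and Serpine2 (0.93) at 24 h in mutant against WT, and Serpinb12 in the mutant (-0.74) did not. Counts of members then became 1 higher in WT at 24 h against no UVB, 0 lower in mutant against WT at 3 h, 1 lower in mutant against WT at 24 h and 1 lower in the mutant at 24 h against 3 h. With genes above background on both arrays alone, 9 of the 16 could be read and all 9 stayed past 2-fold. By construction this left fewer genes: 0 higher in WT at 3 h and 1 higher at 24 h against no UVB, 1 higher and 1 lower in mutant against WT at 24 h, and 0 lower in the mutant at 24 h against 3 h. With an offset of 16, 2 were lower in WT at 24 h against no UVB and 2 against 3 h. In the authors' table with a pseudocount of 1, 2 were higher in WT at 3 h against no UVB, 2 lower at 24 h, 1 higher and 3 lower in WT at 24 h against 3 h, and 2 higher in the mutant at 24 h against 3 h. With no filter on dim probes, 1 was lower in WT at 3 h and 2 at 24 h against no UVB, and the median of the other members in mutant against WT at 24 h was 0.12. Counts over all named genes moved too: in mutant against WT at 24 h they were 114 higher and 189 lower, against 58 and 103 with no background correction and 292 and 401 in the authors' table with a pseudocount of 1. Where no construction is named, the cause was not tested. No paired analysis was possible because each group has 1 array, and for the same reason no replicate could be left out. Signal over background limits the 9 members above it on only some arrays.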
